A study of Arabidopsis thaliana with 8 samples.

Results

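The mitochondrial genome of Arabidopsis thaliana is represented in the deposited count table by 146 genes whose identifiers start with ATMG. The genes described here are the 13 of those 146 whose counts summed to at least 80 over the 8 libraries. They held 193771 of the 194305 counts on ATMG genes and are called the 13 mitochondrial genes below. The study sequenced RNA from roots of 14-day-old Col-0 seedlings, Col-0 being the ecotype most laboratories use. Seedlings growing on plates with the solvent dimethyl sulfoxide (DMSO) were moved for 4 h to plates with 10 µM mebendazole (MBZ) or to plates with DMSO and no drug. Both groups were therefore wild type by their labels, had been on DMSO beforehand, and comprised 4 replicates each. Mebendazole is a benzimidazole known for binding tubulin in parasitic worms. The labels do not say whether replicates came from separate plates or how many roots were pooled in each, so the spread between them may be partly technical.

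Mitochondria keep a small genome of their own, which in plants encodes ribosomal RNAs, transfer RNAs, some ribosomal proteins and a few subunits of the respiratory complexes and of ATP synthase. Most mitochondrial proteins, including the RNA polymerases that transcribe this genome and the factors that splice, edit and degrade its transcripts, are encoded in the nucleus. Plant mitochondrial messenger RNAs as a rule lack stable poly(A) tails, since polyadenylation there marks transcripts for decay. The labels give total RNA as the starting molecule and do not state whether poly(A) selection or removal of ribosomal RNA followed. The nuclear genome of the Col-0 ecotype carries a large insertion of mitochondrial DNA on chromosome 2, so that many mitochondrial sequences have a nuclear copy.

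Few mitochondrial genes passed the test after 4 h of MBZ. Of the 13 mitochondrial genes, 12 had enough counts to be tested, and 2 of them passed an adjusted p of 0.05, both lower in MBZ and none higher. ATMG00660 had a log2 fold change, MBZ over DMSO, of -0.53 (SE 0.17, n = 4 per group) and ATMG00090 of -0.51 (SE 0.18). The 3 genes that carried nearly all mitochondrial counts, ATMG00020, ATMG01390 and ATMG00030, had log2 fold changes of 0.024, -0.023 and -0.099, none past the threshold. Adjusted p-values came from the quasi-likelihood test of edgeR, with the Benjamini-Hochberg method applied over all 20867 genes tested, and 4 of the 12 had an unadjusted p under 0.05. Across all genes tested the same rule called 66.5% (32.9% higher and 33.6% lower in MBZ), so the 2 of 12 stand against a background in which most genes were called. Among the 1960 tested nuclear genes with 80 to 432 counts in all, the range of the 10 less counted mitochondrial genes, 41.1% were called (16.8% higher and 24.3% lower). Of the 9 tested among those 10 mitochondrial genes, 2 were called, both lower. Over the 12 mitochondrial genes the log2 fold changes had a median of 0.00065, and over all genes tested of 0.00027. Scaling between libraries holds the latter near 0, so their closeness shows little. Over the alternative fits the median of the mitochondrial genes tested ran from -0.063 to 0.080. Without regard to sign, the median size was 0.25 over the 12, 0.19 over all genes and 0.43 over the 1960 nuclear genes.

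The 13 genes differed widely in their counts. ATMG00020 held 100700 counts over the 8 libraries, ATMG01390 held 81756 and ATMG00030 held 9260. The next was ATMG00660 with 432, followed by ATMG00090 with 393, ATMG01360 with 286, ATMG00080 with 196, ATMG00640 with 177, ATMG00070 with 162, ATMG00160 with 137 and ATMG00060 with 106. ATMG00650 with 86 and ATMG00670 with 80 lay just inside the limit of 80, and ATMG00690 with 74 and ATMG00510 with 56 just outside it. Counts are not divided by gene length here, so they give how many reads a gene received and not how its transcript level compares with that of another gene. A further 33 ATMG genes had 1 to 79 counts, 14 of them between 12 and 74 counts and 19 between 1 and 9. The remaining 100 ATMG genes were at 0 in all 8 libraries. All counts outside the 13 genes came to 534, or 0.275% of those on ATMG genes. The files do not pair ATMG identifiers with gene names, and the RefSeq annotation of assembly TAIR10.1 matched 0 of the 146 to a gene of the mitochondrial genome, so the genes are given by identifier alone and no role is assigned to them.

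ATMG00020 was read at 309, 268, 225 and 279.6 CPM (counts scaled to a common library total) in DMSO replicates 1 to 4. In MBZ replicates 1 to 4 it was read at 257, 292, 273 and 265 CPM. All 4 MBZ values lay between the lowest and the highest DMSO value, and the groups overlapped. The means were 270.1 ± 34.8 CPM in DMSO and 271 ± 14.8 in MBZ (SD, n = 4 each), and the adjusted p was 0.52 (edgeR). The 95% interval of its log2 fold change ran from -0.040 to 0.088, and of 361 nuclear genes within 1.25 times its counts 89.5% were called. That interval rests on an edgeR SE of 0.032, while the replicates themselves gave an SE of 0.10. The nuclear genes compared varied less between replicates, as given below, so their share called is not a like background.

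ATMG01390 had the same highest and lowest library. Its values were 259, 222, 184 and 226 CPM in DMSO replicates 1 to 4. Its values in MBZ replicates 1 to 4 were 206, 238, 212 and 211 CPM. DMSO replicate 1 was again the highest and DMSO replicate 3 the lowest of the 8 libraries, with the MBZ libraries in between. The means were 223 ± 30.8 and 217 ± 14.3 CPM (SD, n = 4 each), with an adjusted p of 0.576 (edgeR). Its interval ran from -0.091 to 0.046, and 86.1% of the 496 nuclear genes of like counts were called. Here too the edgeR SE of 0.034 was below the replicate SE of 0.11, and nearly all the nuclear genes compared varied less.

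ATMG00030 received far fewer reads than either. Its DMSO values were 29.6, 26.0, 21.9 and 26.0 CPM and its MBZ values 21.5, 26.6, 23.8 and 23.9 CPM, each in the order of replicates 1 to 4. The lowest of the 8 was MBZ replicate 1, followed closely by DMSO replicate 3, and the groups overlapped. The means were 25.9 ± 3.15 and 23.9 ± 2.11 CPM (SD, n = 4 each). The log2 fold change of -0.099 (SE 0.048) had an interval from -0.19 to -0.0037 and an adjusted p of 0.0619 (edgeR), against 69.8% called among 2388 nuclear genes of like counts. The replicates themselves gave an SE of 0.11. With the library total alone in place of TMM factors its adjusted p was 0.0299, and with robust dispersion it was 0.471 (edgeR). The size of the change rested on single libraries: the log2 fold change was -0.023 without DMSO replicate 1 (adjusted p 0.69), -0.044 without MBZ replicate 1 (adjusted p 0.458), -0.15 without MBZ replicate 2 (adjusted p 0.00675) and -0.18 without DMSO replicate 3 (adjusted p 0.000296). It alone of the 13 genes was in the RPKM table of the authors (counts per kilobase of gene length, scaled to the library total), with 80.3 ± 9.80 RPKM in DMSO and 74.3 ± 6.55 in MBZ (SD, n = 4 each). limma on log2(RPKM + 1) gave an adjusted p of 0.202.

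**Figure D1:**
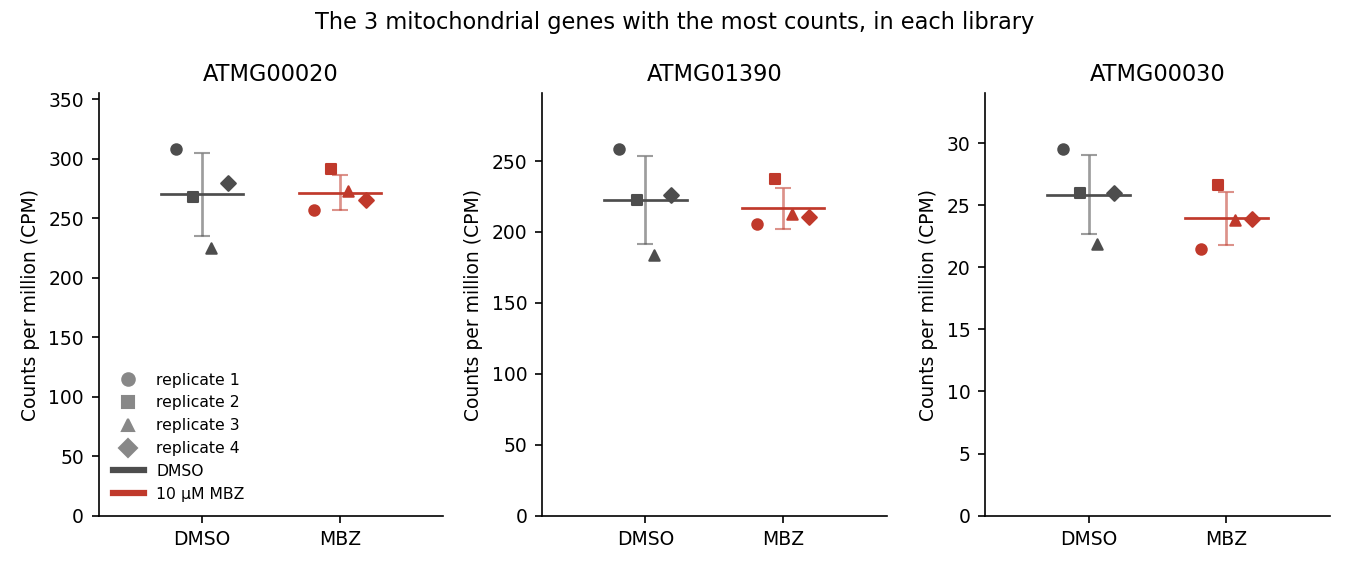
CPM of ATMG00020, ATMG01390 and ATMG00030 in each of the 8 libraries, with DMSO in grey and 10 µM MBZ in red, a marker shape for each replicate number, and lines and bars for the mean and SD of 4 libraries. In ATMG00020 and ATMG01390 DMSO replicate 1 is the highest and DMSO replicate 3 the lowest library, and in all 3 panels the groups overlap.

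Together the 13 genes made up 602.8, 521.7, 436 and 538 CPM in DMSO replicates 1 to 4 and 489.5, 561, 514 and 505 CPM in MBZ replicates 1 to 4. The highest and the lowest sum were both DMSO libraries. The mean was 524 ± 68.7 CPM in DMSO and 517 ± 30.6 in MBZ (SD, n = 4 each), or 0.0524% and 0.0517% of all counts, a difference of -7.28 CPM that is smaller than either SD. Leaving out DMSO replicate 1 turned that difference to 18.8 CPM, and leaving out DMSO replicate 3 made it -36.8 CPM. ATMG00020, ATMG01390 and ATMG00030 held between 98.7% and 99.1% of the summed counts in every library. No p-value is given for the sum, since its genes were chosen with results of these data known. In bulk roots, a change in the number of mitochondria or cells and a change in the RNA of each cannot be told apart.

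Within each group the 3 genes kept nearly constant proportions from library to library while their levels moved. The ratio of ATMG00020 to ATMG01390 counts was between 1.19 and 1.24 in the DMSO libraries and between 1.23 and 1.28 in the MBZ libraries, with the groups overlapping. Its coefficient of variation (CV, the SD as a percent of the mean) was 1.68% in DMSO and 1.86% in MBZ. ATMG00030 counts came to between 9.31% and 9.72% of ATMG00020 counts in DMSO and to between 8.36% and 9.13% in MBZ. Every MBZ library was thus below every DMSO library in that share, which was examined after the values were seen and is given with no test. Its means were 9.58% ± 0.192 and 8.80% ± 0.343 (SD, n = 4 each).

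The spread between replicates set ATMG00020, ATMG01390 and ATMG00030 apart from nearly all nuclear genes of like counts. In DMSO their CVs were 12.9%, 13.8% and 12.2%, while the median CV of nuclear genes within 1.25 times their counts was 1.42%, 1.44% and 3.37%. None of the 361, 496 and 2388 nuclear genes compared had a larger CV in DMSO, the highest among them being 6.85%, 6.66% and 10.8%. In MBZ the CVs were 5.46%, 6.59% and 8.81%, and 0 of 361, 1 of 496 and 8 of 2388 nuclear genes had larger ones. Counting error alone would give about 0.891%, 0.989% and 2.94% at these depths.

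AT3G41768, a ribosomal RNA gene of nuclear chromosome 3, also was highest in DMSO replicate 1 and lowest among DMSO libraries in replicate 3. It was read at 134.5, 123.6, 109.1 and 114.8 CPM in DMSO and at 123.8, 127.1, 114.0 and 108.9 CPM in MBZ, in the order of replicates 1 to 4. Its CV was 9.21% in DMSO and 7.11% in MBZ. The part of ribosomal RNA content in the spread of the mitochondrial genes was not tested.

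The test's standard errors for these 3 genes were smaller than their replicates show. edgeR gave SEs of 0.032, 0.034 and 0.048 on the log2 scale, since it draws each gene's dispersion towards the trend of all genes. The differences of mean log2 CPM were 0.015, -0.031 and -0.11, with SEs from the 4 replicates of each group of 0.10, 0.11 and 0.11. Each difference was smaller than its replicate SE. In limma with each gene's own variance, added after the data were seen, the adjusted p-values were 0.814, 0.921 and 0.509. Under the edgeR test, leaving out DMSO replicate 1 made ATMG00020 higher in MBZ (log2 fold change 0.098, adjusted p 0.001), while leaving out DMSO replicate 3 made it lower (-0.059, adjusted p 0.0215). Leaving out DMSO replicate 1 also turned ATMG01390 to 0.062 (adjusted p 0.0504), and leaving out DMSO replicate 3 brought it to -0.11 (adjusted p 0.000112).

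**Figure D2:**
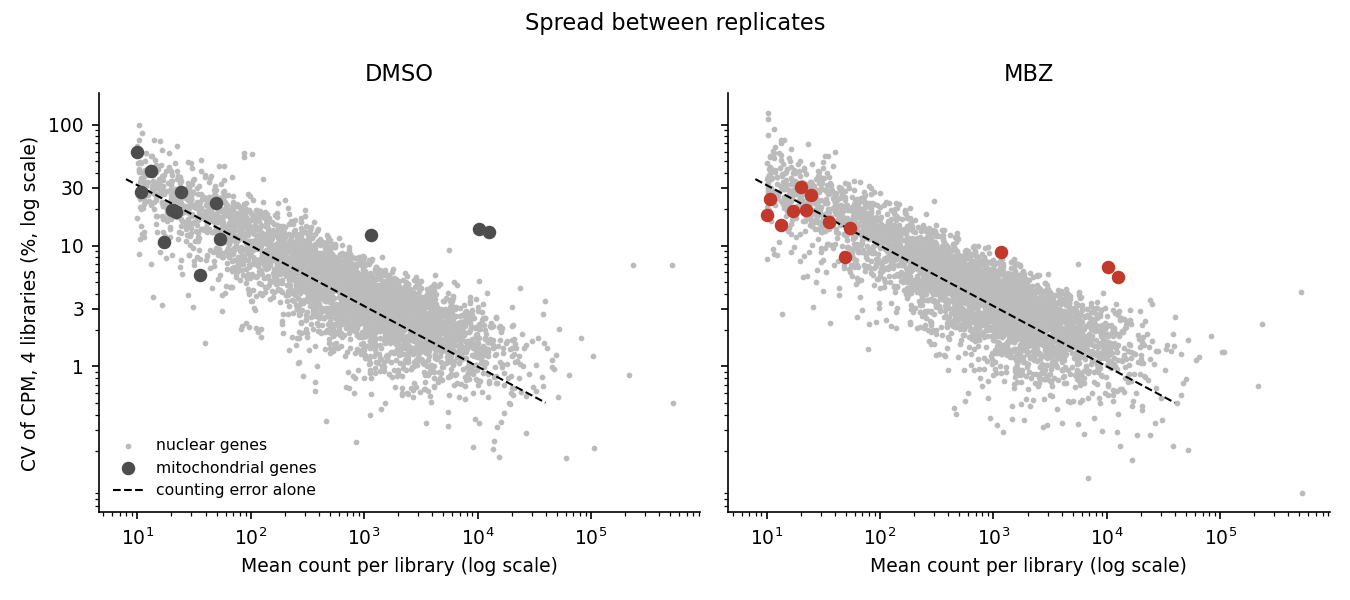
Coefficient of variation of CPM over the 4 libraries of a group (percent, log scale) against the mean count per library (log scale), for DMSO on the left and MBZ on the right. Grey points are 4000 nuclear genes, large points the 13 mitochondrial genes and the dashed line the counting error alone. The 3 mitochondrial genes with the most counts lie above the nuclear genes of like counts in DMSO, at 12.2% to 13.8%, while the other 10 lie within the cloud.

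The other 10 mitochondrial genes had between 80 and 432 counts over the 8 libraries, or at most 82 in a library. The limit that 3 counts set lay between 0.0547 and 0.0789 CPM in the 8 libraries, and all 10 genes were above it in every library. Their CVs were between 5.76% and 59.4% in DMSO and between 8.01% and 30.8% in MBZ, a range in which counting error alone gives between 13.6% and 31.6%. In 4 of the 12 tested genes, all of them among these 10, the groups did not overlap in CPM: ATMG00660, ATMG00090 and ATMG01360 lower in MBZ and ATMG00640 higher. Over all genes tested 58.8% did not overlap. Over the nuclear genes with 80 to 432 counts it was 32.9%, beside 4 of the 9 tested among these 10 genes.

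ATMG00660 was the mitochondrial gene with the smallest p. It was read at 1.28, 1.42, 1.53 and 1.18 CPM in DMSO replicates 1 to 4, from 65, 70, 82 and 45 counts. In MBZ replicates 1 to 4 it was read at 1.11, 0.823, 0.873 and 0.879 CPM, from 61, 35, 39 and 35 counts. MBZ replicate 1 came closest to the DMSO libraries and lay just under the lowest of them. The means were 1.35 ± 0.152 and 0.922 ± 0.130 CPM (SD, n = 4 each), a ratio of 0.681 with a 95% interval of the fitted fold from 0.548 to 0.873 and an adjusted p of 0.00405 (edgeR). In DMSO its highest library was replicate 3, in which ATMG00020 and ATMG01390 were lowest.

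ATMG00090 was read at 1.23, 1.18, 0.989 and 1.66 CPM in DMSO and at 0.930, 0.823, 0.895 and 0.779 CPM in MBZ, each in the order of replicates 1 to 4. All MBZ libraries were below all DMSO libraries, the nearest pair being DMSO replicate 3 and MBZ replicate 1. The means were 1.26 ± 0.282 and 0.857 ± 0.0686 CPM (SD, n = 4 each), with a fitted fold between 0.551 and 0.902 and an adjusted p of 0.0101 (edgeR). DMSO replicate 4 stood highest, and without it the log2 fold change was -0.37 with an adjusted p of 0.0805. Against a minimum change of 1.2-fold in place of no change, neither gene passed, with adjusted p-values of 0.0603 for ATMG00660 and 0.0992 for ATMG00090 (edgeR), while 27.3% of all genes tested did.

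ATMG01360 and ATMG00640 did not overlap between the groups and did not pass the threshold. ATMG01360 was read at 0.850, 0.933, 0.858 and 0.815 CPM in DMSO and at 0.620, 0.682, 0.559 and 0.804 CPM in MBZ. MBZ replicate 4 lay just under DMSO replicate 4, the lowest of the DMSO libraries. Its log2 fold change was -0.37 (SE 0.20, adjusted p 0.0996, edgeR), and it passed in limma with each gene's own variance (adjusted p 0.0356). ATMG00640 was read at 0.435, 0.284, 0.411 and 0.447 CPM in DMSO and at 0.547, 0.470, 0.716 and 0.502 CPM in MBZ. The lowest MBZ library, replicate 2, lay just above the highest DMSO library, replicate 4. Its log2 fold change was 0.53 (SE 0.26, adjusted p 0.0643, edgeR), as large in size as that of ATMG00660 and with fewer reads behind it.

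**Figure D3:**
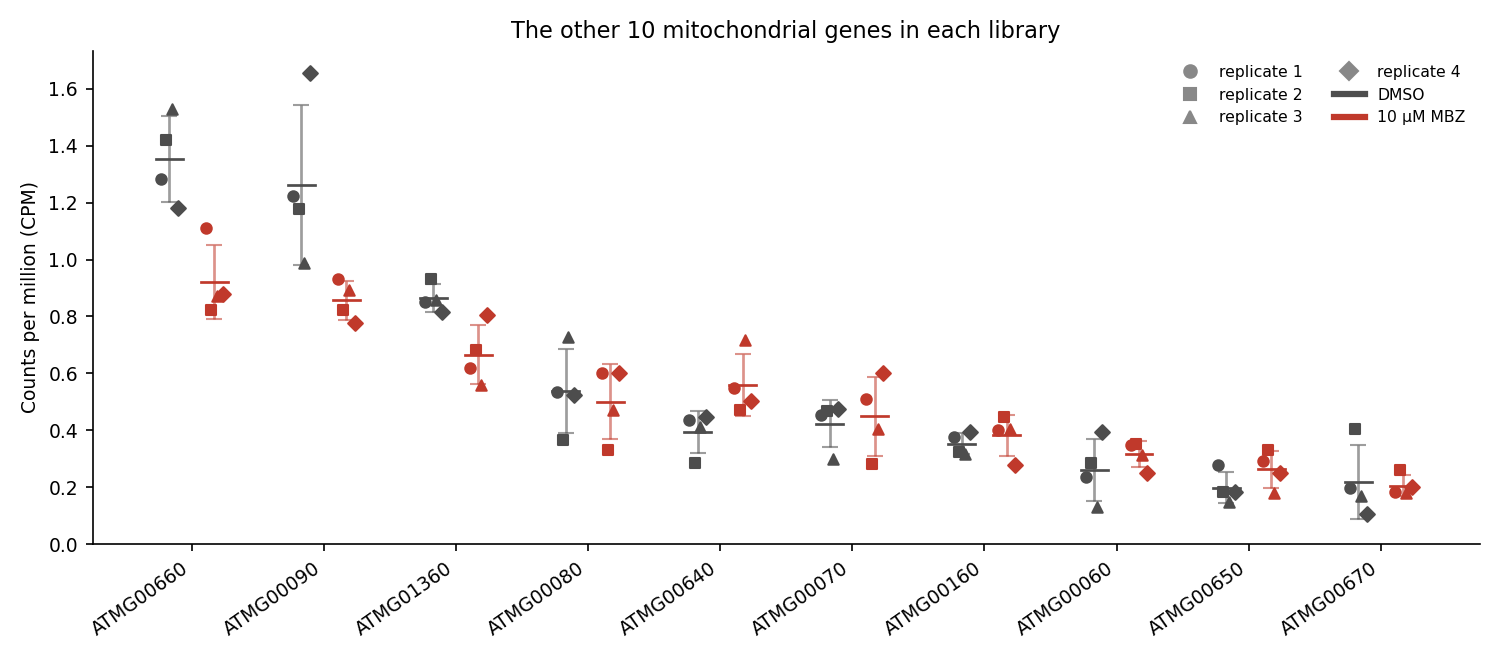
CPM of the 10 mitochondrial genes with 80 to 432 counts in each library, ordered by total count, with DMSO in grey, 10 µM MBZ in red, a marker shape for each replicate number, and the mean and SD of 4 libraries. The groups do not overlap for ATMG00660, ATMG00090, ATMG01360 and ATMG00640, the last being higher in MBZ.

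ATMG00080 was read at 0.534, 0.365, 0.728 and 0.526 CPM in DMSO and at 0.602, 0.329, 0.470 and 0.603 CPM in MBZ. ATMG00070 was read at 0.455, 0.467, 0.299 and 0.473 CPM in DMSO and at 0.511, 0.282, 0.403 and 0.603 CPM in MBZ. ATMG00160 was read at 0.375, 0.325, 0.317 and 0.394 CPM in DMSO and at 0.401, 0.447, 0.403 and 0.276 CPM in MBZ. In all 3 the groups overlapped, and MBZ replicate 2 was the lowest of the 8 libraries for the first and the second and the highest for the third. Their log2 fold changes were -0.085, 0.12 and 0.15, with SEs between 0.25 and 0.29 and adjusted p-values of 0.78, 0.707 and 0.662 (edgeR).

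The 3 genes with the fewest reads also overlapped between the groups. ATMG00060 ran from 0.131 to 0.394 CPM in DMSO and from 0.251 to 0.353 CPM in MBZ, with a log2 fold change of 0.35 (SE 0.34). ATMG00650 ran from 0.149 to 0.277 CPM in DMSO and from 0.179 to 0.329 CPM in MBZ, with a log2 fold change of 0.42 (SE 0.37). Their adjusted p-values were 0.357 and 0.315 (edgeR). ATMG00670 did not pass the filter on low counts and was not tested, and its values ran from 0.105 to 0.406 CPM in DMSO and from 0.179 to 0.259 CPM in MBZ. At these depths a change had to be large to be seen: the interval of ATMG00650 ran from a fold of 0.806 to 2.23 and that of ATMG00060 from 0.804 to 2.03.

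**Figure D4:**
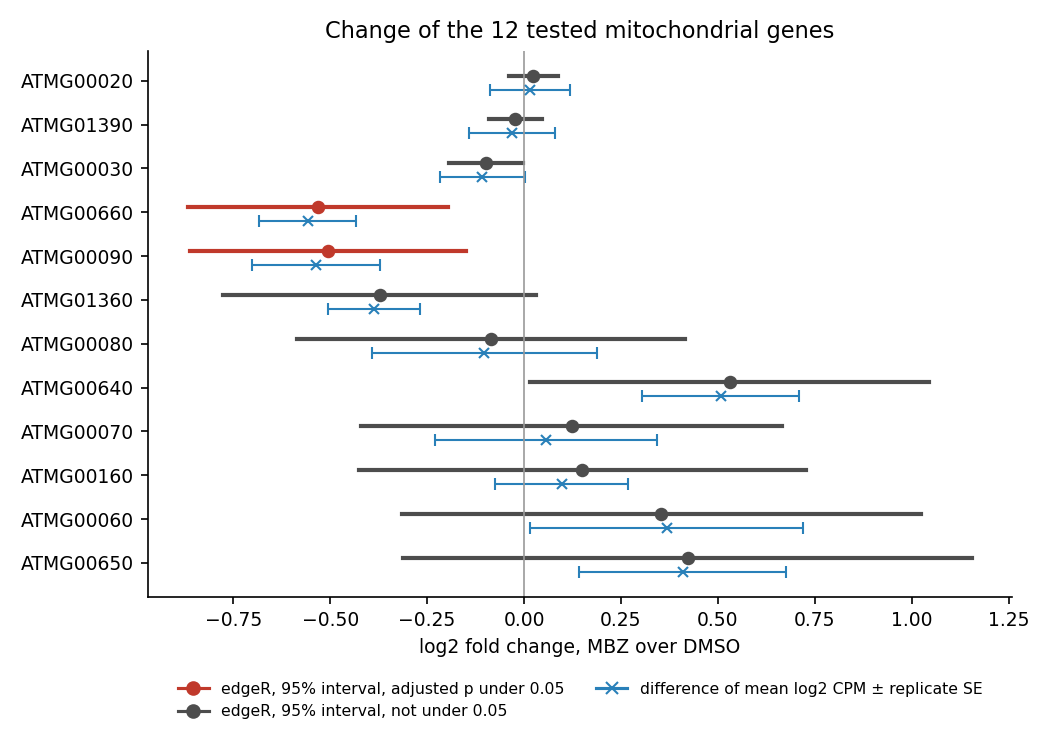
Log2 fold change, MBZ over DMSO, of the 12 tested mitochondrial genes. Circles and thick lines give the edgeR estimate with its 95% interval, in red where the adjusted p was under 0.05 (ATMG00660 and ATMG00090), and blue crosses the difference of mean log2 CPM with the SE from 4 replicates a group. For the top 3 genes the blue SE bars are wider than the edgeR intervals, and for ATMG00660 and ATMG00090 both lie wholly below 0.

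Summed over the 10 genes, the level was 5.87, 5.84, 5.58 and 6.18 CPM in DMSO and 5.55, 4.80, 4.99 and 5.15 CPM in MBZ. The groups did not overlap, though DMSO replicate 3 and MBZ replicate 1 were nearly equal. The means were 5.87 ± 0.245 and 5.12 ± 0.319 CPM (SD, n = 4 each). Together ATMG00660 (mean 1.35 CPM in DMSO, 0.922 in MBZ) and ATMG00090 (1.26 and 0.857) fell by more than the sum did. The sum carries no test, and 5 of its 9 tested genes had fold changes above 0 and 4 below. Unlike ATMG00020 and ATMG01390, it did not set DMSO replicate 1 above the other DMSO libraries.

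Much of the mitochondrial sequence also lies in the nuclear genome, which bears on what read counting can place. In assembly TAIR10.1, 70.6% of all 50-base windows of the mitochondrial genome occurred exactly on chromosomes 1 to 5, and 70.4% on chromosome 2. Windows found nowhere else in either genome were 29.1% of the total, and 31.9% at a window length of 100 bases. RefSeq annotates 33 protein-coding and 3 ribosomal RNA genes in this mitochondrial genome, of which 14 had no window unique to it and 11 had over 50% of windows unique. Those 11 were rrn26, rrn18 and rrn5, which encode ribosomal RNAs, the respiratory subunit genes cox1, cox2, nad4L and nad9, the ATP synthase gene atp4, the cytochrome c maturation gene ccmB, and the ribosomal protein genes rps3 and rpl16. Genes with no unique window included cob, cox3, atp1, atp9 and nad6. For the 13 mitochondrial genes, neither the files nor this annotation says which of these genes an identifier stands for.

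Counts also differed between ATMG identifiers with and without a named nuclear counterpart. RefSeq names 53 of them beside a nuclear locus, and of these 0 were among the 13 genes, 45 were at 0 counts and the highest total was 21. Of the other 93 identifiers, 13 were among the 13 genes and 55 were at 0. The nuclear copies received few reads as well: of 120 genes in the count table with at least 90% of their windows in the mitochondrial genome, 98 were at 0, and together they held 779 counts. Their summed level was 2.17 ± 0.167 CPM in DMSO and 2.03 ± 0.338 in MBZ (SD, n = 4 each). AT2G07709 with 273 counts and AT2G07711 with 254, both annotated as pseudogenes on chromosome 2, were the only ones of the 120 with at least 80. Read length, the handling of reads with several matches and the sequence of the authors' mitochondrial reference are not given in the sources used here, and the part of multiple matches in the low counts was not tested. Whether an ATMG gene at 0 was transcribed cannot be told from its count, and 55 of those at 0 had no nuclear locus named beside them.

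Nuclear genes of mitochondrial function were read from 3 lists of well-known genes. The list of nuclear subunits of the respiratory complexes and ATP synthase held 34 tested genes, of which 25 were lower and 3 higher in MBZ at an adjusted p of 0.05, with a median log2 fold change of -0.07. Over all genes tested the same rule called 33.6% lower and 32.9% higher. The changes were small. AT5G13430, a gene for the iron-sulfur subunit of the cytochrome bc1 complex, was read at 114 ± 2.09 CPM in DMSO and 94.8 ± 1.73 in MBZ (log2 fold change -0.25). AT5G13440, annotated with the same product, did not pass (log2 fold change 0.00098, adjusted p 0.966, edgeR). AT5G08690, a subunit of ATP synthase, had a log2 fold change of -0.16, GAMMA CA2 (AT1G47260), a carbonic anhydrase-like subunit of complex I, -0.19, and COX6B (AT1G22450), a subunit of cytochrome c oxidase, -0.19. AT5G08670 and AT5G08680, annotated with the same product as AT5G08690, had log2 fold changes of -0.04 and 0.02, the latter not past the threshold. SDH1-1 (AT5G66760), the flavoprotein subunit of succinate dehydrogenase, was among the 3 higher (0.09). Against a minimum change of 1.2-fold, 0 of the 34 passed in edgeR, where 27.3% of all genes tested did.

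The list of factors for mitochondrial gene expression and DNA maintenance was mixed, with 5 of 24 tested genes higher, 6 lower and a median of -0.0088, where 66.5% of all genes tested were called. MGP3 (AT1G68990), also known as RPOTm, the phage-type RNA polymerase of mitochondria, was higher (31.1 ± 1.54 CPM in DMSO, 34.4 ± 0.977 in MBZ, log2 fold change 0.16, adjusted p 2.78e-05, edgeR). AT5G15700, the related polymerase RPOTmp that serves mitochondria and plastids, had a log2 fold change of -0.08 and an adjusted p of 0.111. RIP1 (AT3G15000), an organellar RNA editing factor also known as MORF8, was lower (-0.21), as was AT5G14580, a polyribonucleotide nucleotidyltransferase, which degrades and trims RNA (-0.22). PMH2 (AT3G22330), a mitochondrial RNA helicase, was higher (0.13). Here too 0 genes passed in edgeR against a minimum change of 1.2-fold, beside the 27.3% of all genes.

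The list of alternative respiration and mitochondrial stress genes held the largest changes of the 3 lists. Of its 17 genes 14 were tested, 10 were lower, 1 was higher, and their log2 fold changes had a median of -0.66, beside 33.6% lower and 32.9% higher over all genes tested. AOX1A (AT3G22370), the alternative oxidase that passes electrons from ubiquinol to oxygen without pumping protons, went from 125.6 ± 1.67 CPM in DMSO to 54.7 ± 1.32 in MBZ (log2 fold change -1.19, adjusted p 1.26e-64, edgeR). AT2G21640, annotated as a marker of the oxidative stress response and also known as UPOX, went from 23.9 ± 0.765 to 4.32 ± 0.432 CPM (-2.45). NAC053 (AT3G10500), a transcription factor, had a log2 fold change of -0.87 and NDB2 (AT4G05020), an external NAD(P)H dehydrogenase of the inner membrane, -0.78. DIC2 (AT4G24570), a dicarboxylate carrier, was the gene that was higher (0.29), and NAC017 (AT1G34190), a transcription factor of mitochondrial retrograde signalling, did not pass (adjusted p 0.867). Against a minimum change of 1.2-fold 8 of the 14 passed, beside 27.3% of all genes tested. The 13 mitochondrial genes and the 3 lists come from the same 8 libraries and are set side by side, and a difference between them was not tested.

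**Figure D5:**
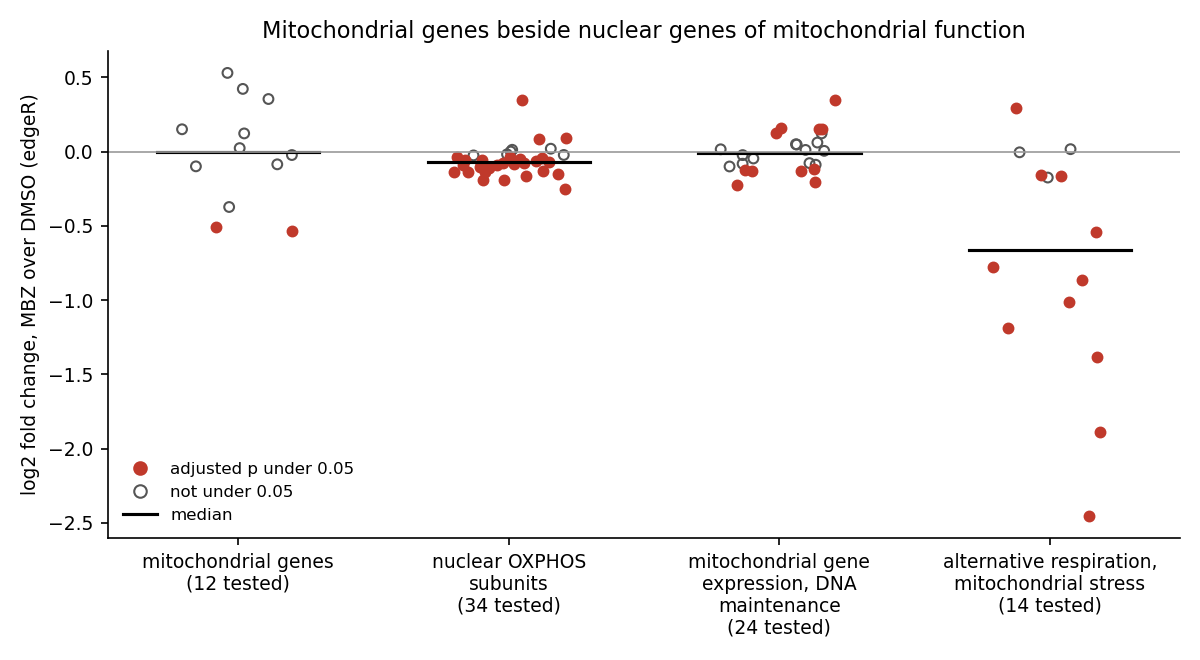
Log2 fold change, MBZ over DMSO, from edgeR, for the 12 tested mitochondrial genes and 3 lists of nuclear genes of mitochondrial function, each point a gene, filled red where the adjusted p was under 0.05, with the median as a black line. The medians are 0.00065, -0.07, -0.0088 and -0.66 from left to right.

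The chloroplast genome, the other organelle genome in the table, took a still smaller share of the counts. Of its 133 genes in the table, a total of 20 had at least 80 counts, 18 were tested and 2 passed, both lower in MBZ and none higher, with a median log2 fold change of 0.0035. The same rule called 66.5% of all genes tested and 41.1% of the nuclear genes with 80 to 432 counts. That range does not cover ATCG00480 with 560 counts, nor ATCG00190 with 1127, which was among the 2 chloroplast genes that passed. All its genes together came to 16.0 ± 1.08 CPM in DMSO and 15.0 ± 0.619 in MBZ (SD, n = 4 each). Library totals ran from 38042437 to 54818801 counts. All 7 root markers examined were detected, with summed levels from 14252 to 14419 CPM in DMSO and from 8774 to 8791 in MBZ, the bulk of it PYK10 (AT3G09260), a root beta-glucosidase with a log2 fold change of -0.71. Of the 7, a total of 5 were lower at an adjusted p of 0.05 and 2 higher, SCR (AT3G54220, 0.23) and PLT1 (AT3G20840, 0.26), transcription factors of the root tip. The 5 markers of green shoot tissue, photosynthesis genes, summed to 99.2 to 105 CPM in DMSO and 65.0 to 66.2 in MBZ, with none at 0 in either group and 4 of the 5 lower at an adjusted p of 0.05. By the same rule 33.6% of all genes tested were lower and 32.9% higher. The part of tissue makeup in the mitochondrial changes was not tested.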

How the data were processed

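The files deposited by the authors were raw counts per gene for 33602 genes in 8 libraries (whole numbers whose totals differ between libraries) and RPKM values for 17872 of them. The submitters' processing notes name STAR 2.7.0a, edgeR 3.36.0 and TAIR10, with no role given; the counting program, strand setting and treatment of multiply mapped reads are not given in the sources used here. Samples were grouped by title; descriptions of the MBZ samples hold the words DMSO, 4h and SM, and their titles and treatment labels give MBZ. CPM is the count over the column total. The main test was edgeR 4.0.16 (R 4.3.3), quasi-likelihood, with TMM factors, filterByExpr, group as the single factor and Benjamini-Hochberg adjustment over 20867 genes, tested on simulated data beforehand. The simulation gave every gene the same dispersion, so it could not show how the test treats genes whose spread departs from the trend. Alternatives used DESeq2 1.42.0 and limma 3.58.1. limma on the deposited RPKM used log2(RPKM + 1) or log2(RPKM + 0.1), which understates changes of low genes. Sequence windows were compared in RefSeq TAIR10.1, which is not the authors' build, so no coordinates are given. RefSeq matched 87 of 87 listed nuclear genes and no ATMG identifier; lists of mitochondrial roles were therefore not used, and no member sequence was printed. Values are given per library for the 10 genes with the highest mean CPM, those past the threshold and the 3 smallest changes. Of each nuclear list, up to 4 genes with the smallest p and 4 fixed genes are named. SDH1-1, DIC2, NAC017, AT5G13440, AT5G08670 and AT5G08680 were added after their values were seen. Equal replicate numbers did not pair the samples. Counting intervals and floors cover counting error only. The 13 genes, the lists and the tests were chosen with earlier results of these data known.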

Additional observations from a re-analysis of the deposited data

Results flagged for a closer look

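Of 34 sets of 4 libraries examined (the 13 genes, 2 sums and 2 ratios, each in DMSO and in MBZ), 1 held a library apart from the other 3, and chance alone flags about 1 set in 20. ATMG00070 was at 0.299 CPM in DMSO replicate 3, from 16 counts, while the other DMSO libraries lay between 0.455 and 0.473 CPM. The gap was 0.893 of the group's range, above Dixon's 95% critical value. The same library was the lowest in DMSO for ATMG00020 and ATMG01390.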

How the results depend on the processing

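The 2 genes past the threshold, both lower and none higher in MBZ, became 1 (1 lower) when genes averaging under 50 counts were left out, which kept 4 of the genes in the test, and 0 (0 lower) against a 1.2-fold change. The other scalings, the test without a filter, DESeq2, limma-voom, robust dispersion, limma with each gene's own variance and the fit without DMSO replicates 1 and 3 gave 2 or 3, all lower. The last 2 were added after the data were seen. With the replicate block the count was 2. The replicate numbers did not pair the samples: same-numbered libraries had correlations of their deviations between -0.0139 and -0.00106. Leaving out each library in turn gave 1 to 5 genes, 1 to 5 lower and 0 to 1 higher; the 5 came without DMSO replicate 3, the 1 without DMSO replicate 4, and the 1 higher, ATMG00020, without DMSO replicate 1. The difference of the summed level of the 13 genes ranged from -36.8 to 18.8 CPM over the same fits. ATMG00660 passed in 20 of 21 alternatives (log2 fold change -0.65 to -0.47) and ATMG00090 in 18 of 20 (-0.68 to -0.37).

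Genes that did not pass with all libraries changed sign as follows. ATMG00020 went to -0.0048 with upper-quartile factors and ran from -0.059 (without DMSO replicate 3) to 0.098 (without DMSO replicate 1) with a library left out, being -0.011 without MBZ replicate 2. ATMG01390 ran from -0.11 to 0.062 (without DMSO replicate 1), being 0.0024 without MBZ replicate 1. ATMG00080 ran from -0.24 to 0.11 (without DMSO replicate 3), being 0.063 without MBZ replicate 2 and 0.22 without DMSO replicates 1 and 3. ATMG00070 ran from -0.028 (without DMSO replicate 3) to 0.28, being -0.023 without MBZ replicate 4 and -0.044 without DMSO replicates 1 and 3, and ATMG00060 to -0.048 in that last fit. ATMG00030 kept its sign in 23 alternatives and passed in 7. The cause was not tested. The nuclear subunit list had 21 to 28 genes lower and the stress list 8 to 10, apart from 0 in the former against a 1.2-fold change. For genes with 10 counts a library, as ATMG00670, depth limits what can be seen.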
